A study of Sus scrofa with 8 samples.

Results

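Toll-like receptors and the proteins that carry their signal were followed in the blood of pregnant and non-pregnant sows through 5 genes, TLR2, TLR4, CD14, MYD88 and TRAF6. The members are all probes whose RefSeq transcript belongs to 1 of these genes: 1 probe each for TLR2, MYD88 and TRAF6, 2 for CD14 and 4 for TLR4, which makes 9 of 43603 probes on the array and 5 of the 1817 genes measured under a symbol. The probes of a gene are numbered from the brightest. For TLR4 they are A_72_P165431, A_72_P547391, A_72_P419074 and A_72_P444577, for CD14 A_72_P050971 and A_72_P756625, and for TLR2, MYD88 and TRAF6 A_72_P088356, A_72_P088111 and A_72_P223847. All 9 were well above background on all 8 arrays, so none was lost to the filter on dim probes, which 26480 probes passed. The genes were selected on their measured pregnant against non-pregnant difference in these same sows as well as on their place in the pathway. Their differences between the groups are therefore given as a description, with no test.

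Whole blood was drawn from the submandibular vein of 8 female pigs of parity 5, all inseminated 14 days earlier. In the group called pregnant 4 sows carried a pregnancy, and in the group called non-pregnant 4 sows did not. The design describes 3 pairs of sows sharing a parent and 1 unrelated pair, but the labels do not say which sow belongs to which pair. Each sow had 1 array, hybridised with Cy3-labelled cRNA from RNA that had passed an integrity threshold, and variation from animal to animal therefore cannot be separated from variation from array to array. Sows are named here by group and replicate number, and replicates 1 and 3 of both groups lay on slide 1, replicates 2 and 4 on slide 2.

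Toll-like receptors are membrane proteins of monocytes, neutrophils and other white cells that recognise molecules made by microbes. TLR2 binds bacterial lipoproteins together with TLR1 or TLR6, and TLR4 binds lipopolysaccharide with the help of CD14, which hands the lipid over, and of the co-receptor MD-2. Both receptors recruit the adaptor MYD88, which assembles IRAK kinases, and these engage the ubiquitin ligase TRAF6, from which the signal reaches NF-kB and the genes of inflammatory cytokines.

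Values are log2 of the processed signal relative to the 75th percentile of the same array, so 0 is the level of that percentile and 1 unit is a doubling. A probe's brightness depends on its sequence, so a value can be set against the same probe in another sow and not against another probe. Unless a probe number is given, the brightest probe of a gene is meant. The processed signal of the 9 probes ran from 33.7 for TLR4 probe 4 to 3797 for CD14 probe 1, and no spot was saturated (0 on each array). The array of pregnant replicate 2 departed from the rest. Its 75th percentile was 142, against 176 to 297 elsewhere, and the lowest correlation between any 2 arrays was 0.870 with it and 0.946 without it. The difference of each of the 5 genes is therefore given without this sow as well.

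All 9 probes had a higher mean in the pregnant sows, by 0.22 to 1.21 on the log2 scale with a median of 0.44. Of all 26480 probes, 43.3% had a positive difference. At an adjusted p under 0.05 (limma, Benjamini-Hochberg over all probes) 0 of the 9 were called higher, as were 0.0% of all probes, and the smallest adjusted p among all probes was 0.533. TRAF6 was the 1 member probe with a difference of at least 2-fold, a size that 1.58% of all probes reached. At an unadjusted p under 0.05 the count was 1 of 9, again TRAF6, against 1.52% of all probes on the higher side and 0.763% on the lower. TRAF6 was no longer counted when slide or replicate number was a block, under quantile normalization, normexp or the deposited table, on slide 1 alone, or with any of 6 of the 8 sows left out. In 0 of the 9 probes did the pregnant sows all lie above the non-pregnant sows, against 0.895% of all probes. Because the choice of the genes rested on this contrast, these counts are no test of the members and nothing is read from the shares.

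TLR2 had values of 2.77, 2.64, 2.80 and 2.27 in pregnant replicates 1 to 4, against 2.55, 2.15, 2.30 and 2.19 in the non-pregnant replicates. Pregnant replicates 1, 2 and 3 lay above every non-pregnant sow, while pregnant replicate 4 sat among the non-pregnant values, below non-pregnant replicates 1 and 3. The means were 2.62 ± 0.24 in pregnant and 2.30 ± 0.18 in non-pregnant sows (SD, n = 4 each), a log2 difference of 0.32, or 1.25-fold. The difference was 0.36 on slide 1 and 0.28 on slide 2, each from 2 sows against 2, and 0.31 without pregnant replicate 2.

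TLR4, the lipopolysaccharide receptor, had values of 1.59, 1.37, 1.16 and 1.38 in pregnant replicates 1 to 4. In the non-pregnant replicates they were 1.47, 0.93, 0.49 and 0.88. The pregnant sows lay close together, 3 of the non-pregnant sows lay below all of them, and non-pregnant replicate 1 reached the upper end of the pregnant range. The means were 1.38 ± 0.18 in pregnant and 0.94 ± 0.40 in non-pregnant sows (SD, n = 4 each), a log2 difference of 0.43, or 1.35-fold. It was 0.39 on slide 1, 0.47 on slide 2 and 0.43 without pregnant replicate 2. Leaving out non-pregnant replicate 3, the lowest sow, gave 0.28, and leaving out non-pregnant replicate 1, the highest of its group, gave 0.61.

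CD14, the protein that hands lipopolysaccharide to TLR4, spread widely in both groups. Its values were 3.35, 3.97, 4.02 and 2.65 in pregnant replicates 1 to 4, against 2.31, 3.18, 2.84 and 3.83 in the non-pregnant replicates. Pregnant replicates 2 and 3 lay above every non-pregnant sow, but pregnant replicate 4 was the second lowest of all 8 and non-pregnant replicate 4 the third highest. The means were 3.50 ± 0.64 in pregnant and 3.04 ± 0.64 in non-pregnant sows (SD, n = 4 each), and the log2 difference of 0.46, or 1.38-fold, was smaller than the SD within either group. The slides went opposite ways, with a difference of 1.11 on slide 1 and -0.19 on slide 2. Leaving out 1 sow moved it between 0.22, when non-pregnant replicate 1 was dropped, and 0.74, when pregnant replicate 4 was dropped. It was 0.30 without pregnant replicate 2.

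MYD88, the adaptor shared by most Toll-like receptors and by the interleukin-1 receptor family, had values of 0.22, -0.60, -0.10 and 0.75 in pregnant replicates 1 to 4. The non-pregnant replicates had -0.01, -0.38, -0.55 and -0.50. The pregnant group held both the highest sow, replicate 4, and the lowest, replicate 2, and its replicates 1 and 4 lay above every non-pregnant sow. The means were 0.07 ± 0.57 in pregnant and -0.36 ± 0.25 in non-pregnant sows (SD, n = 4 each), a log2 difference of 0.43, or 1.35-fold, smaller than the SD within the pregnant group. It was 0.34 on slide 1 and 0.52 on slide 2. Without pregnant replicate 2 it was 0.65, and without pregnant replicate 4 it was 0.20.

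TRAF6, the ubiquitin ligase downstream of MYD88, had values of 1.87, 1.82, 0.25 and 2.16 in pregnant replicates 1 to 4, against -0.35, -0.16, 1.60 and 0.16 in the non-pregnant replicates. The 8 sows fell into 2 sets of 4 that cut across the groups. Pregnant replicates 1, 2 and 4 and non-pregnant replicate 3 lay between 1.60 and 2.16, and pregnant replicate 3 with the other non-pregnant sows lay between -0.35 and 0.25. The empty stretch between the sets spanned 1.34, wider than either set (0.56 for the upper and 0.60 for the lower), and the next largest gap between neighbouring sows was 0.32. Among the 9 probes no other gap between neighbouring sows exceeded 0.78 (CD14 probe 2). The group means were 1.53 ± 0.86 in pregnant and 0.31 ± 0.88 in non-pregnant sows (SD, n = 4 each), a log2 difference of 1.21, or 2.32-fold. It was 0.44 on slide 1, which held both sows that lay with the other group, and 1.99 on slide 2. Leaving out either pregnant replicate 3 or non-pregnant replicate 3 gave 1.64 and leaving out non-pregnant replicate 1 gave 0.99, while it stood at 1.11 in the absence of pregnant replicate 2.

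**Figure D1:**
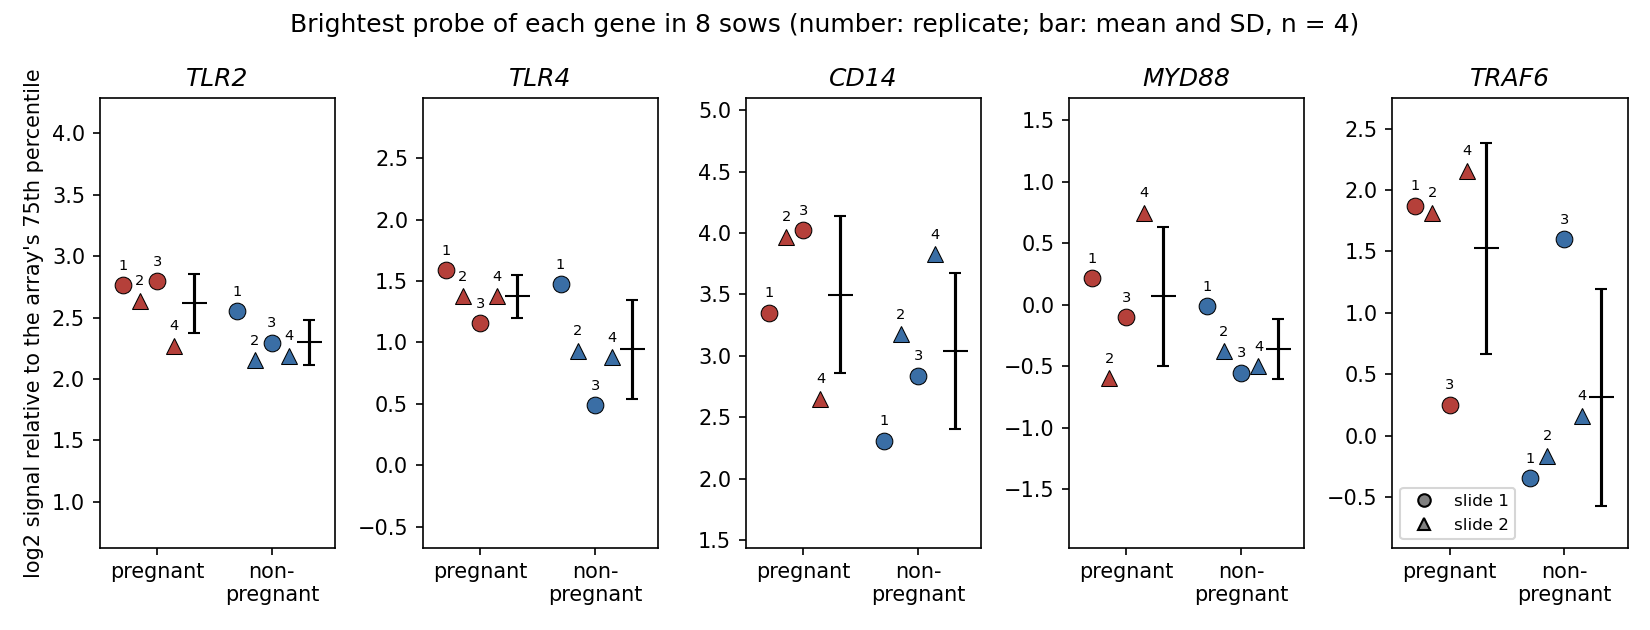
Log2 signal relative to the array's 75th percentile (vertical axes, each spanning the same number of units) for the brightest probe of each gene in 4 pregnant (red) and 4 non-pregnant sows (blue). Numbers are replicates, circles slide 1, triangles slide 2, and bars the mean and SD (n = 4). Every gene has overlapping groups, and TRAF6 leaves a gap of 1.34 between 2 sets of 4 sows that each hold both groups.

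Agreement between probes could be examined for TLR4 and CD14. TLR4 probe 2 had values of 1.13, 0.94, 0.74 and 1.07 in pregnant replicates 1 to 4, against 1.15, 0.59, 0.16 and 0.22 in non-pregnant replicates, and followed probe 1 closely (r = 0.956 over 8 arrays). The log2 difference of probe 2 was 0.44, beside 0.43 for probe 1. In both probes non-pregnant replicate 3 was the lowest sow and non-pregnant replicate 1 was level with the highest pregnant sows.

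The other 2 probes to TLR4 were dimmer. Probe 4 had values of -1.32, -1.47, -1.60 and -1.30 in pregnant and -1.50, -1.67, -2.17 and -2.38 in non-pregnant replicates, a log2 difference of 0.51, with pregnant replicates 1, 2 and 4 above all non-pregnant sows. Probe 3 had values of -1.04, -1.55, -1.75 and -1.68 in pregnant and -1.0, -2.13, -2.26 and -1.52 in non-pregnant replicates, a log2 difference of 0.22, the smallest of the 9 probes. Probes 3 and 4 followed each other least (r = 0.436), and they parted most in non-pregnant replicate 4, which was the lowest of all sows in probe 4 and the third highest in probe 3. Probe 3 gave 0.05 when non-pregnant replicate 3 was left out and 0.47 when non-pregnant replicate 1 was left out, so its size turned on single sows. The 6 correlations among the TLR4 probes ran from 0.436 to 0.956. They are a description, since the probes share array and RNA.

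CD14 probe 2 had values of 0.47, 0.40, 1.24 and -0.10 in pregnant and -0.74, 0.45, -0.11 and 0.31 in non-pregnant replicates. The log2 difference was 0.52, beside 0.46 for probe 1, and the slides again went opposite ways, with 1.28 on slide 1 and -0.23 on slide 2. The probes followed each other at r = 0.852 over 8 arrays, and at 0.901 without pregnant replicate 2. Non-pregnant replicate 1 was the lowest sow and pregnant replicate 3 the highest in both probes, while pregnant replicate 2 and non-pregnant replicate 4 were higher in probe 1 than in probe 2 relative to the other sows. TLR2, MYD88 and TRAF6 had 1 probe and 1 spot each, so the 2 sets of sows seen for TRAF6 have no second probe beside them.

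**Figure D2:**
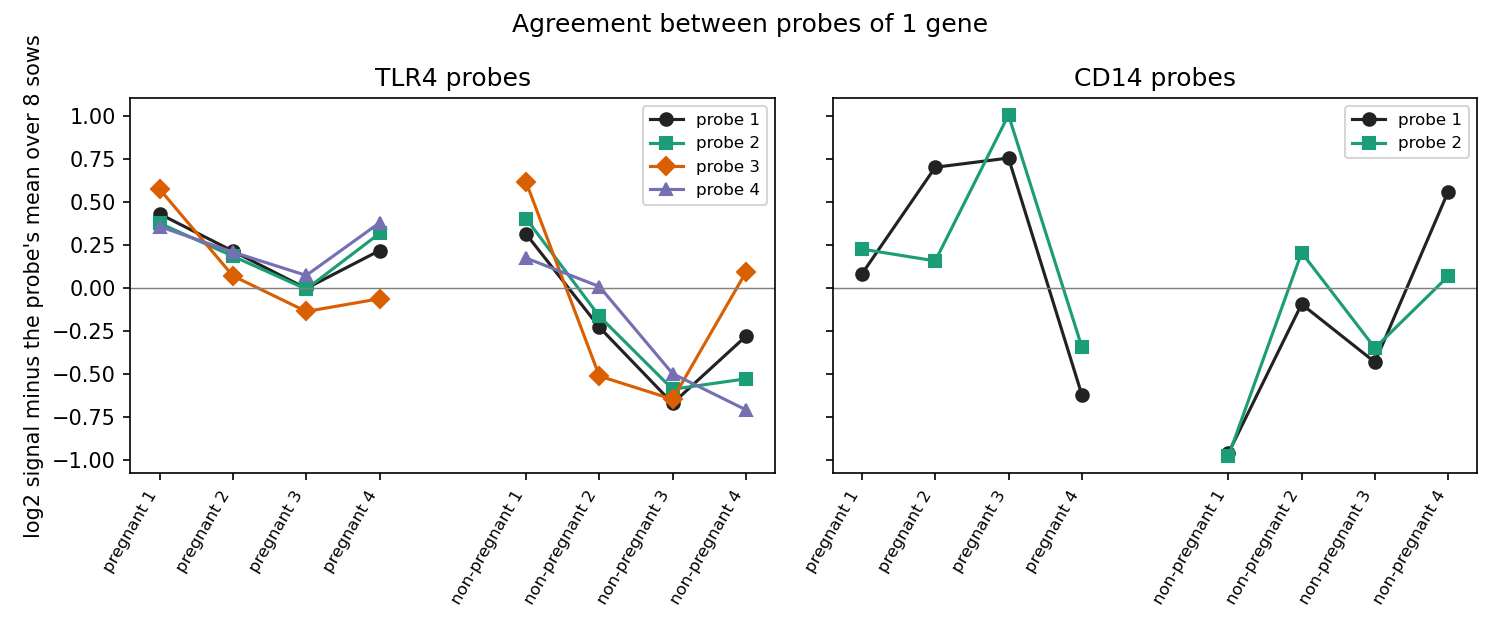
Log2 signal of each TLR4 and CD14 probe minus its own mean over the 8 sows (vertical axis) by sow (horizontal axis, pregnant left, non-pregnant right). Lines only join the values of 1 probe. TLR4 probes 1 and 2 nearly coincide (r = 0.956), probe 3 departs from probe 4 (r = 0.436), and both CD14 probes put non-pregnant replicate 1 lowest.

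Across the 9 probes, all had a positive difference on slide 1 and 7 on slide 2, where both CD14 probes were negative. The spread between the slides was smallest for TLR4 probe 3 (0.23 on slide 1 and 0.21 on slide 2) and TLR2. It was largest for TRAF6 and CD14.

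**Figure D3:**
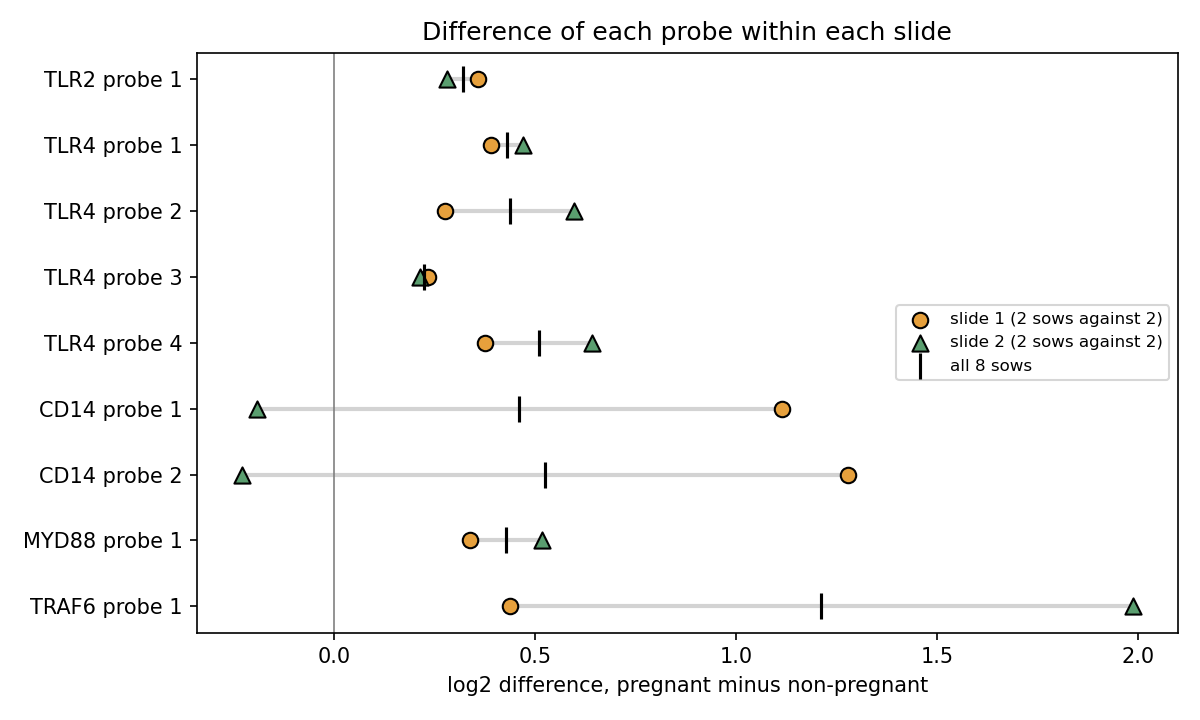
Log2 difference, pregnant minus non-pregnant (horizontal axis), of each member probe on slide 1 (circles) and slide 2 (triangles), each from 2 sows against 2, and over all 8 sows (bars). TLR2, TLR4 and MYD88 lie right of 0 on both slides, both CD14 probes change sign between slides, and TRAF6 runs from 0.44 to 1.99.

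Receptors and adaptors were compared through the change of their means between sows, with TLR2, TLR4 and CD14 on 1 side and MYD88 and TRAF6 on the other. The receptor mean was 2.57, 2.66, 2.66 and 2.10 in pregnant replicates 1 to 4, against 2.11, 2.09, 1.87 and 2.30 in non-pregnant replicates, which gave group means of 2.50 ± 0.27 in pregnant and 2.09 ± 0.17 in non-pregnant sows (SD, n = 4 each). The adaptor mean was 1.05, 0.61, 0.08 and 1.45 in pregnant, against -0.18, -0.27, 0.52 and -0.17 in non-pregnant replicates, with group means of 0.80 ± 0.59 in pregnant and -0.02 ± 0.37 in non-pregnant sows (SD, n = 4 each). In the receptor mean only pregnant replicate 4 lay within the non-pregnant range, and that sow had the highest adaptor mean. The difference between groups was 0.40 for the receptors and 0.82 for the adaptors.

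Receptor mean minus adaptor mean was 1.52, 2.05, 2.58 and 0.65 in pregnant replicates 1 to 4, against 2.29, 2.36, 1.35 and 2.47 in non-pregnant replicates. The groups overlapped fully, with the highest and the lowest sow both pregnant. The means were 1.70 ± 0.83 in pregnant and 2.12 ± 0.52 in non-pregnant sows (SD, n = 4 each), a difference of -0.42 that was smaller than the SD within either group. It was 0.23 on slide 1 and -1.07 on slide 2. Dropping pregnant replicate 4 left a difference of -0.06, and dropping pregnant replicate 3 or non-pregnant replicate 3 gave -0.71 or -0.67. With MYD88 as the only adaptor the difference was -0.02, but -0.30 without pregnant replicate 2 and -0.14 without pregnant replicate 3. With TRAF6 as the only adaptor it was -0.81. Within the receptors, TLR4 minus TLR2 differed between groups by 0.11 (-0.04 without non-pregnant replicate 3) and CD14 minus TLR4 by 0.03 (-0.13 without pregnant replicate 2).

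Whether the members varied together from sow to sow was not used to choose them. It was examined on values centred on each group's mean, with 10 pairs and a two-sided exact permutation test within groups. Of the 10 pairs, 0 passed an adjusted p of 0.05. The pair with the largest correlation was CD14 and MYD88, which ran opposite ways: Pearson r was -0.80 (exact permutation p = 0.0278, adjusted 0.278, n = 8) and Spearman rho -0.62 (exact permutation p = 0.160, adjusted 0.590). Without the 2 sows farthest from the median of CD14 r was -0.77, and without pregnant replicate 2 it was -0.84. With arrays scaled on the median r was -0.52 (adjusted exact permutation p = 0.816), with normexp -0.50 and without pregnant replicate 4 -0.64. Pregnant replicate 4 shows the opposition most plainly, lowest of its group for CD14 and highest of all sows for MYD88.

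For TLR4 and its helper CD14 no relation was detectable in 8 sows, with r = -0.41 (exact permutation p = 0.370, adjusted 0.650), rho = -0.50 (exact permutation p = 0.243) and r = -0.61 without the 2 farthest sows. TLR2 and TLR4 gave r = 0.34 (exact permutation p = 0.403, adjusted 0.650), rho = 0.24 (exact permutation p = 0.628) and r = 0.51 without the 2 farthest sows. TLR4 and MYD88 gave r = 0.43 (exact permutation p = 0.168, adjusted 0.650), rho = 0.69 (exact permutation p = 0.0625) and r = 0.35 without the 2 farthest sows. None of these relations between a receptor and its partner passed the threshold. They depended on the scaling and on single sows. For TLR4 and CD14 r was 0.0002 with arrays scaled on the median, 0.69 with normexp and 0.03 without non-pregnant replicate 1. For TLR2 and TLR4 it was -0.03 with quantile normalization, 0.69 scaled on the median, 0.85 with normexp and -0.22 without non-pregnant replicate 1. TLR4 and MYD88 kept a positive r, which was 0.02 with normexp. TLR2 gave r = 0.11 with CD14 (exact permutation p = 0.812, rho = 0.10) and r = -0.27 with MYD88 (exact permutation p = 0.615, rho = -0.14). Both turned on pregnant replicate 4, without which r was -0.75 for TLR2 and CD14 and 0.69 for TLR2 and MYD88, and with the replicate block they were 0.75 and -0.73. No pooled correlation is given for TRAF6, because its values fall into 2 sets of 4 sows, too few for a correlation within a set. Each slide held 4 sows, again too few. Centring on group and slide left CD14 and MYD88 at r = -0.93.

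The genes that followed each member most closely were taken from 1812 other genes with a known symbol, by Pearson r over the 8 sows after centring on the group means. These r values are the highest of many and are a description, with no p. For TLR4 they were TLR1, a partner of TLR2 in lipoprotein recognition (r = 0.978), CD40, a receptor of antigen-presenting cells for T cell help (0.965), and PLGRKT, a plasminogen receptor (0.955). Without pregnant replicate 2 the values were 0.981, 0.972 and 0.956. TLR2, by comparison, ranked 755 of 1816 genes in likeness to TLR4, and MYD88 ranked 620. The 3 genes nearest to TLR4 did not share its difference between the groups, which was -0.02 for TLR1, -0.17 for CD40 and 0.003 for PLGRKT, beside 0.43 for TLR4.

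For CD14 the nearest genes were FLVCR2, a membrane transporter (r = 0.937), TIMP1, an inhibitor of matrix metalloproteinases (0.937), and CA3, a carbonic anhydrase (0.929). All 3 placed pregnant replicate 4 lowest of its group and non-pregnant replicate 4 highest of its own, as CD14 did for these sows. Their log2 differences between the groups were -0.25, 0.02 and -0.23. For MYD88 the nearest were MAPKAPK5, a kinase acting downstream of p38 (r = 0.983), CHUK, the kinase IKK-alpha of the NF-kB pathway (0.976), and ZNF558, a zinc finger gene (0.974). Their log2 differences were -0.24, -0.05 and 0.32, so a close likeness within the groups went with unequal differences between them. Without pregnant replicate 2 r was 0.969, 0.951 and 0.946 for MYD88, and 0.958, 0.939 and 0.933 for the genes nearest to CD14. The median r with all genes was 0.25 for MYD88, 0.23 for TLR4, 0.01 for TLR2 and -0.07 for CD14.

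For TLR2 the nearest genes were ADM, which encodes the vasodilator peptide adrenomedullin (r = 0.910), TNC, the matrix protein tenascin C (0.861), and TGFA, a ligand of the epidermal growth factor receptor (0.855). Without pregnant replicate 2 they stood at 0.936, 0.906 and 0.967. ADM and TNC were dim, at -4.13 to -2.10 and -4.36 to -2.52. For TRAF6 the nearest by the same rule were MAOB, monoamine oxidase B, FABP4, a fatty acid carrier, and THRA, a thyroid hormone receptor. FABP4 was well above background on only 7 arrays. Its lowest value, -6.61, fell in pregnant replicate 3, the pregnant sow with a low TRAF6 value. No correlation is printed for them because of the 2 sets of sows in TRAF6.

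**Figure D4:**
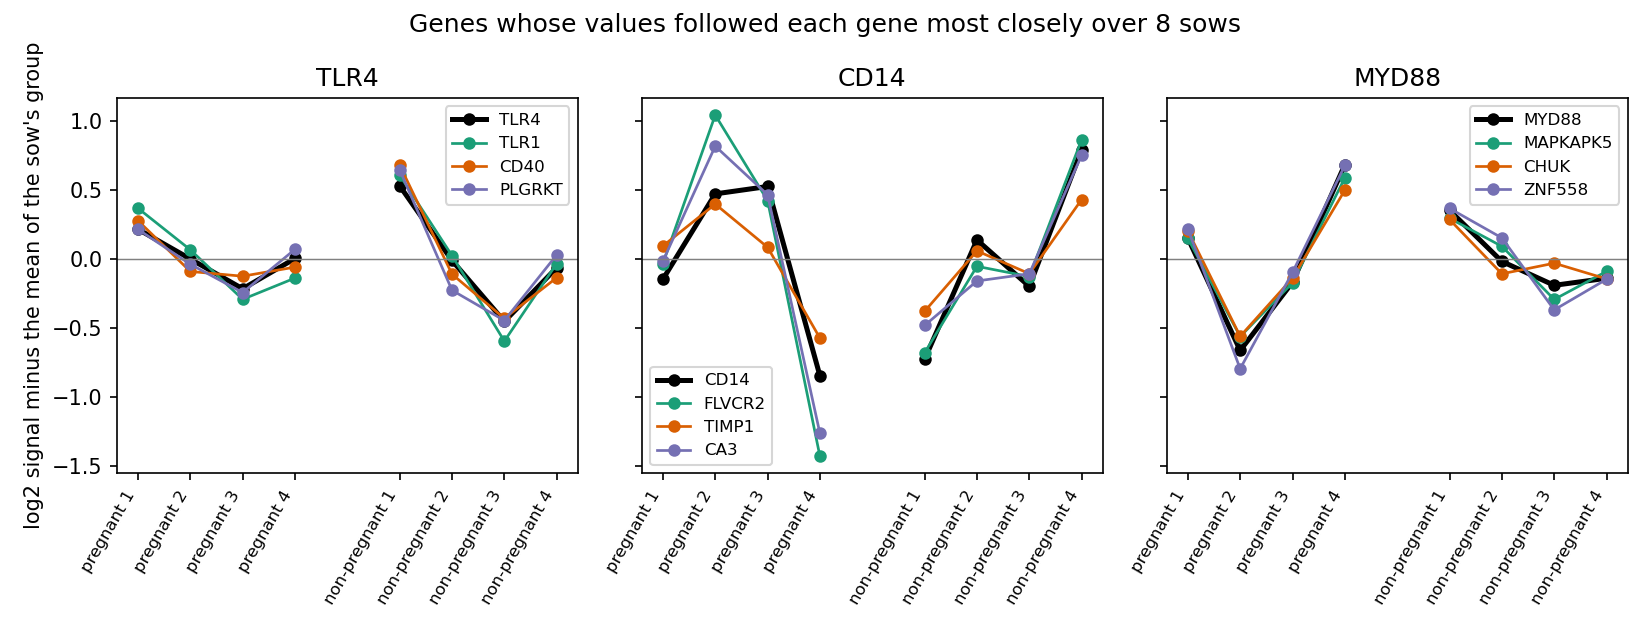
Log2 signal minus the mean of the sow's group (vertical axis) by sow (horizontal axis, pregnant left, non-pregnant right) for TLR4, CD14 and MYD88 (black) and, for each, the 3 genes of highest r. Lines only join the values of 1 gene. TLR1, CD40 and PLGRKT track TLR4 in both groups, and MAPKAPK5, CHUK and ZNF558 share the low value of pregnant replicate 2 and the high value of pregnant replicate 4 in MYD88.

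The rest of the pathway was described with 6 lists holding 84 other genes, of which 46 had a probe matched by symbol and 40 were measured. Of these 40 genes, 16 had a positive and 24 a negative difference, a positive share of 40% beside 44.1% of all 1817 genes, and the median was -0.04 for both the 40 genes and all genes. In the fit over all genes 0 of the 40 were called in either direction (limma, Benjamini-Hochberg), as were 0.0% of all genes, and 0 had an unadjusted p under 0.05, beside 1.6% of all genes higher and 0.826% lower. The groups did not overlap in 0 of the 40, beside 0.715% of all genes on the higher and 0.771% on the lower side. Values below are therefore given without a verb of change.

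Among the receptors and co-receptors 12 of 14 genes were measured. Their differences ran from -0.30 to 0.24 around a median of -0.03, and 4 lay above 0 and 8 below. CD180, a receptor of B cells related to TLR4, had means of 2.41 ± 0.38 in pregnant and 2.18 ± 0.80 in non-pregnant sows (SD, n = 4 each), a log2 difference of 0.24 that was 0.01 without non-pregnant replicate 3, 0.03 without non-pregnant replicate 2 and 0.57 without non-pregnant replicate 1. LBP, the serum protein that loads lipopolysaccharide onto CD14, had -0.30. LY96, the co-receptor MD-2, had -0.17, while its other probes ran from -0.13 to 0.009. TLR9, a receptor for bacterial DNA, had 0.16. Leaving out pregnant replicate 1 turned LBP to 0.23, and leaving out non-pregnant replicate 4 turned LY96 to 0.03.

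Of the other adaptors, kinases and ligases 4 of 21 were measured, 2 on each side of 0 and with 0.05 as their median. TICAM2, an adaptor that links TLR4 to the TRIF branch of signalling, had means of 0.08 ± 0.30 in pregnant and -0.25 ± 0.45 in non-pregnant sows (SD, n = 4 each), a log2 difference of 0.33 that kept its sign with each sow left out (0.19 to 0.47). IRAK4, the kinase that MYD88 recruits first, had 0.17, and MAP3K7 and TBK1, kinases acting beyond TRAF6 and TRIF, had -0.08 and -0.07. Of the NF-kB and IRF factors 8 of 13 were measured. Their median was 0.06, and 5 lay above 0 and 3 below. IKBKB, the kinase that marks the NF-kB inhibitor for destruction, had 0.43, or 0.14 without non-pregnant replicate 1, and NFKBIA, that inhibitor, had -0.11. RELA, a subunit of NF-kB, had 0.51 and IRF7, a factor of interferon induction, had 0.52, but without pregnant replicate 2 these were -0.03 and -0.07. A second probe for RELA had -0.10, a second probe for IKBKB 0.16 and a second probe for NFKBIA 0.09, opposite in sign to its first. None of the 7 listed inhibitors had a probe matched by symbol.

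Of 22 target genes listed, 14 were measured. Their differences ran from -1.41 to 0.21 around a median of -0.13, and 5 lay above 0 and 9 below, a positive share of 35.7% beside 44.1% of all genes. IL1B, interleukin-1 beta, had means of 1.33 ± 0.41 in pregnant and 2.06 ± 1.03 in non-pregnant sows (SD, n = 4 each), a log2 difference of -0.73 that lay between -1.16 and -0.32 with each sow left out. CCL4, a chemokine, had -0.11 ± 0.24 in pregnant and 0.52 ± 0.78 in non-pregnant sows (SD, n = 4 each), a difference of -0.64. PTGS2, the inducible prostaglandin synthase, had -0.50, and NOS2, the inducible nitric oxide synthase, had -0.48, although other NOS2 probes ran from -0.56 to 1.01. The most negative target was CXCL8, interleukin-8, at -1.41, with means of -0.32 ± 1.67 in pregnant and 1.09 ± 1.80 in non-pregnant sows (SD, n = 4 each). CXCL8 is named for that value after it was seen, and its difference was smaller than its SD in either group and lay between -2.11 and -0.70 with each sow left out. TNF had a difference of -0.0008. The other receptors that use MYD88 or TRAF6 had 2 of 7 genes measured, CD40 with -0.17 and IL18R1, a chain of the interleukin-18 receptor, with -0.10.

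**Figure D5:**
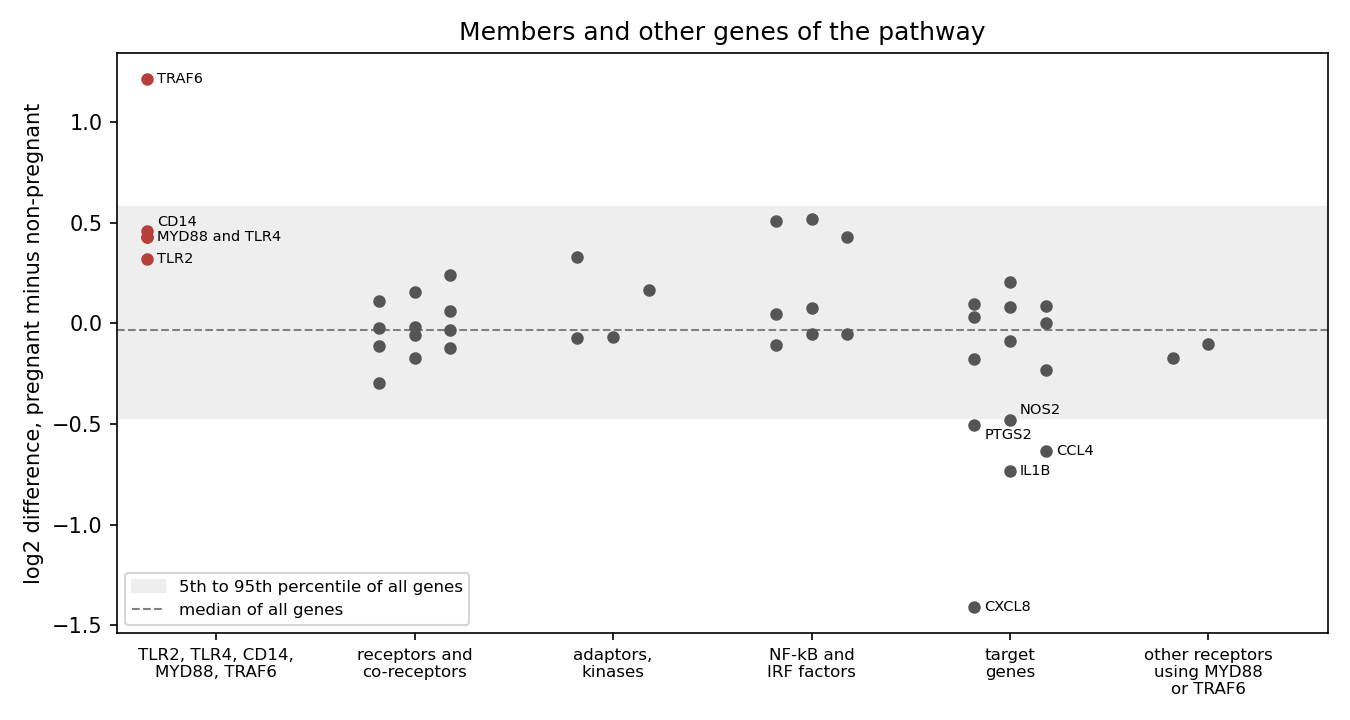
Log2 difference, pregnant minus non-pregnant (vertical axis), of the brightest probe of the 5 members (red) and of 40 other genes of the pathway (grey) by role. The band is the 5th to 95th percentile of all 1817 genes (-0.47 to 0.58) and the dashed line their median. TRAF6 lies above the band, and NOS2, PTGS2, CCL4, IL1B and CXCL8 lie below it, with 0 genes past the test over all genes.

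In whole blood a lower signal can come from fewer cells of a type or from less RNA per cell, and these cannot be told apart here. Markers of the white cells and of platelets were measured, all well above background on all 8 arrays except PMAP-36 (7 arrays). Each of the white cell types with a list and the platelets was thus represented, eosinophils and basophils had no list, and 0 of 9 red cell markers had a probe matched by symbol. Monocyte markers, 4 measured of 10 listed, had a mean log2 level of 1.91 to 2.08 in pregnant and 1.34 to 1.78 in non-pregnant sows. All 4 had a positive difference, among them CD163, the hemoglobin scavenger receptor (0.64), and their summed signal in units of the 75th percentile was 42 to 54.0 in pregnant and 28.8 to 36.9 in non-pregnant sows. The mean monocyte level lay above the non-pregnant range in each of the 4 pregnant sows, with a difference between group means of 0.40. LYZ, lysozyme, had 0.64 like CD163, while FCGR1A and SIRPA, named with it after their values were seen, had 0.16 and 0.14. LYZ was the brightest of the 4 in every sow (4.88 to 5.46 in pregnant, 3.84 to 4.92 in non-pregnant sows). The monocyte sum thus gives that probe the most weight. Taken singly, none of the 4 markers separated the groups. CD163 was highest in non-pregnant replicate 2 (3.11), and LYZ in non-pregnant replicate 1 (4.92) exceeded pregnant replicates 1 (4.91) and 2 (4.88). FCGR1A was highest in non-pregnant replicate 1 (-0.84) and SIRPA lowest in pregnant replicate 4 (1.69). Of all genes taken singly, 0.715% had every pregnant sow above the non-pregnant range. That share was not computed for means over several genes, so the mean monocyte level has no such background here.

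Neutrophil markers, 8 of 15, had a mean level of 0.78 to 1.90 in pregnant and 0.57 to 1.54 in non-pregnant sows, with 5 positive and 3 negative differences, with S100A8 at 0.20. The neutrophil sum was 46.1 to 218 in pregnant and 98.2 to 506 in non-pregnant sows. MMP9, a gelatinase named after its values were seen, had the difference of largest size in the list, -1.09, beside a mean difference of 0.13 over the list. It was the brightest of the list in every sow (4.40 to 7.68 in pregnant, 6.38 to 8.90 in non-pregnant sows). The neutrophil sum thus gives that probe the most weight. Lymphocyte markers had lower group means in the pregnant sows, with overlapping ranges. Of all genes, 44.1% had a positive difference. T cell markers, 7 of 12, had a mean level of 1.56 to 2.23 in pregnant and 2.12 to 2.39 in non-pregnant sows and were all negative, CD3D at -0.60 and CD3E at -0.23. The low end of 1.56 was pregnant replicate 2, and the other pregnant sows had 2.01 to 2.23. Among the cytotoxic and NK cell markers and the B cell markers that sow was not the lowest. The T cell sum was 40.0 to 56.3 in pregnant and 52.5 to 64.4 in non-pregnant sows.

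Cytotoxic and NK cell markers, 6 of 11, had 0.41 to 0.95 in pregnant and 0.79 to 1.35 in non-pregnant sows, all negative, CD8A at -0.56, and summed to 24.7 to 29.1 in pregnant and 29.1 to 51.6 in non-pregnant sows. B cell markers, 3 of 8, had 0.03 to 0.63 in pregnant and 0.17 to 0.91 in non-pregnant sows, all negative, and summed to 3.49 to 5.57 in pregnant and 3.71 to 6.92 in non-pregnant sows. Platelet markers, 4 of 7, had 4.36 to 5.14 in pregnant and 4.64 to 5.29 in non-pregnant sows, with 1 positive and 3 negative differences, ITGA2B at -0.32. Their sum was 1336 to 3045 in pregnant and 1596 to 2268 in non-pregnant sows. ITGB3, an integrin chain named after its values were seen, was by far the brightest (10.4 to 11.6 in pregnant, 10.6 to 11.1 in non-pregnant sows). The platelet sum thus gives that probe most of the weight. Of the measured markers 0 were called (limma, adjusted over all genes). The part of these cell types in the differences of the 5 members was not tested.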

How the data were processed

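Single-colour Agilent porcine arrays of whole blood from 4 pregnant and 4 non-pregnant sows were analysed. For each array the authors deposited a scanner file. The file headers name Feature Extraction 10.7.3.1, and the submitters' processing notes name version 10.7. Per the file headers the processed signal used here is an intensity after background subtraction and spatial detrending, and arrays were not normalized to each other. The authors also deposited a log2 table, whose normalization and centring are not given in the sources used here. Its columns correlated at 0.99895 or more with their own array, had a median of 5.03 each and served as an alternative.

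Control spots and outlier flags were left out (215 probes dropped), and log2 signals were taken relative to each array's 75th percentile. A probe was kept if all 4 arrays of either group showed it well above background. Of 5779 probes with a RefSeq transcript, 5461 matched 2389 symbols in a table of Sscrofa11.1, used for names only. A gene was represented by its brightest kept probe. Groups were compared with limma 3.58.1 in R 4.3.3, two-sided, Benjamini-Hochberg at 0.05. The same fit was later run on values simulated from the means and SDs of the main fit, with results not given here. Tables and plots used Python 3.11.15, pandas 2.3.3, numpy 2.4.6 and matplotlib 3.10.9. The limma p-values rest on the spread between these arrays, in which variation between animals and between arrays cannot be separated. The main fit took no account of the pairs of sows sharing a parent.

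The members and the gene lists were chosen with earlier results of these data known. Named genes are the 5 members with every probe, up to 4 measured genes of smallest unadjusted p from each pathway list, the 3 genes most like each member, and at most 2 fixed markers per cell type, 1 of which is not reported here. The precision was limited by the number of arrays: the 95% interval of a gene reached a median of 0.67 (log2) to either side. Alternatives were other scalings, filters and background corrections, the slide, the replicate number as a block, a trended variance, the mean of a gene's probes, the deposited table and each array left out. Local background subtraction and the relations between members and cell type markers were added after the data were seen.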

Additional observations from a re-analysis of the deposited data

Results flagged for a closer look

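Of 56 groups of 4 sows examined, 3 held a sow far from its group, where chance gives about 1 in 20. For receptor mean minus adaptor mean, non-pregnant replicate 3 stood low at 1.353, with the other non-pregnant sows between 2.29 and 2.47. This is the sow whose TRAF6 value lay with those of 3 pregnant sows. For CD40, the gene second closest to TLR4, pregnant replicate 1 stood high at 3.822, with the other pregnant sows between 3.42 and 3.48. For MAP3K7, a kinase that acts beyond TRAF6, non-pregnant replicate 1 stood high at 0.5646, with the other non-pregnant sows between 0.15 and 0.20.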

How the results depend on the processing

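Under every alternative run, 0 probes, 0 genes and 0 of the other pathway genes were called, the smallest adjusted p over these settings being 0.182 for genes and 0.233 for probes. Normexp background correction left a floor of 58.4 to 950 between arrays, so its values are printed with that limit: it gave log2 differences of 0.87 for TLR2, 1.17 for CD14, -0.35 for TLR4 probe 3 and -0.32 for TLR4 probe 4, with 0.55 for receptor minus adaptor. Local background subtraction, added later, kept a floor of 52.0 to 56.0. Slide 1 alone gave 1.11 and slide 2 alone -0.19 for CD14 (1.28 and -0.23 for its probe 2). MYD88, TRAF6 and the brightest TLR4 probe moved by less than the SD between sows under every alternative run, normexp included (0.12, 0.55 and 0.62 in that order). For TRAF6 that SD was 0.87. Its difference ran from 0.44 on slide 1 to 1.99 on slide 2, beside 1.21 with all sows. MYD88, with an SD of 0.44, had 0.20 without pregnant replicate 4, beside 0.43 with all sows. The replicate number was not taken to pair the sows, since the labels do not tie it to the pairs and the same-number correlations of deviations were 0.22, 0.48, 0.43 and -0.12, with the same number the best partner for replicates 2 and 3. Pairing of some sows was not settled by this. With the number as a block 0 probes and 0 genes were called, the smallest adjusted p among genes being 0.571. Of the 10 pairs of members 0 were called with the replicate block, the smallest adjusted p being 0.177. Unadjusted p under 0.05 then counted 57 genes, against 44 without the block. The share of pathway genes with a positive difference was 25% when non-pregnant replicate 3 was dropped, 65% when non-pregnant replicate 1 was dropped and 60% without pregnant replicate 2, against 40% with all sows, beside 36.7%, 50.3%, 43.2% and 44.1% of all genes in these 4 settings. Of 18 named pathway genes, 11 changed sign when 1 sow was left out, 6 of them without pregnant replicate 2. Beside LBP, LY96, RELA and IRF7, these were TLR9 (-0.09 without pregnant replicate 4, -0.06 without non-pregnant replicate 1), IRAK4 (-0.005 without non-pregnant replicate 3) and NFKBIA (0.0005 without pregnant replicate 2). Dropping pregnant replicate 2 turned MAP3K7 to 0.05, TBK1 to 0.08 and IL18R1 to 0.06, and dropping non-pregnant replicate 1 turned them to 0.02, 0.07 and 0.06 and CD40 to 0.05. TBK1 was also 0.008 without pregnant replicate 3.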

Other observations

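The members were also set against the cell type markers from sow to sow, on values centred on the group means, in 30 relations chosen after the data were seen. Of these 0 passed an adjusted p of 0.05. CD14 and the mean of the neutrophil markers gave r = 0.84 (exact permutation p = 0.024, adjusted 0.243, n = 8, rho = 0.86, adjusted 0.292), with r = 0.84 without the 2 farthest sows and 0.89 without pregnant replicate 2. The brightest of these markers, MMP9, ran opposite to CD14 in pregnant replicates 1 to 4 (7.14, 5.81, 4.40 and 7.68). In the non-pregnant sows both were highest in replicate 4. With the monocyte markers CD14 gave r = -0.06, and 0.07 without pregnant replicate 2. MYD88 ran opposite to the neutrophil markers (r = -0.80, exact permutation p = 0.024, adjusted 0.243), but r was -0.34 without the 2 farthest sows. MYD88 and the T cell markers gave r = 0.81 (exact permutation p = 0.0538, adjusted 0.404) and rho = 0.93 (exact permutation p = 0.0139, adjusted 0.292), and r = 0.46 without the 2 farthest sows. TLR4 and the B cell markers gave r = 0.81 (exact permutation p = 0.014, adjusted 0.243) and 0.61 without the 2 farthest sows. TLR4 and the T cell markers gave r = 0.40 and rho = 0.69 (exact permutation p = 0.040, adjusted 0.292). That r was 0.81 without pregnant replicate 2 and 0.99 without the 2 farthest sows. With the cytotoxic and NK cell markers TLR4 gave r = 0.64 (exact permutation p = 0.160, adjusted 0.579). TLR4 and the monocyte markers gave 0.73, and 0.25 without the 2 farthest sows, so that relation rests on those sows.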
